A study of Homo sapiens with 5 samples.

Results

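The 9 genes described here encode the enzymes and core partners that write, maintain and erase DNA methylation: DNMT1, DNMT3A, DNMT3B, DNMT3L, UHRF1, TET1, TET2, TET3 and TDG. They were chosen by gene symbol, and all 9 had a row among the 33857 genes of the count table. The cells were H9, a line of human embryonic stem cells (hESCs), grown in mTeSR medium. The study selected its CRISPR cultures on puromycin before it picked clones from single cells. The assay was sequencing of poly(A+) RNA. The mock control group had 2 samples. The labels call them only control, and the study describes its mock controls as cells given the empty CRISPR vector. The CFIm25-m group had 3 samples, from clones edited by CRISPR/Cas9 in CFIm25 (gene NUDT21). CFIm25 is a subunit of the complex that directs where mRNA precursors are cleaved and polyadenylated. Each CFIm25-m replicate was 1 clone, made with its own guide RNA near the start codon. By the study's own account at least 1 allele per clone kept the reading frame and gave a protein shortened at its N-terminus, so the clones are reduced and mutant rather than null, although the labels call them KO and the series title KD. The question was whether the near loss of some transcripts in these clones went with changed transcript levels of the DNA methylation machinery. Whether that loss is lasting was not measured in these 5 samples. The study reports that most of its lowered genes came back when CFIm25 was expressed again.

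In mammalian DNA a methyl group is placed on cytosines that are followed by guanine (CpG sites). DNMT3A and DNMT3B set new methylation, helped by the catalytically inactive DNMT3L, and DNMT1 copies it onto the new strand after replication, brought to hemimethylated sites by UHRF1. The TET enzymes oxidise the methyl group, and the glycosylase TDG cuts out the oxidised bases. Primed hESCs are known for abundant DNMT3B, methylated CpG sites over most of the genome and CpG-rich promoters that stay largely free of methylation. DNA methylation itself was not measured here. These are mRNA levels, and they say nothing of the protein, its activity or its place on the genome.

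The samples held between 18754108 and 23372391 reads assigned to genes. NUDT21 had normalized counts (reads scaled by the authors to a common depth) of 6503 and 6398 in the mock controls, against 4035, 3281 and 3400 in the clones, a log2 fold change of -0.86 (SE 0.11, limma adjusted p = 0.0043). The 8 hESC markers summed to between 112172 and 133178 normalized counts in every sample, whereas the 8 germ layer markers summed to between 42.1 and 54.0. Of 5 fibroblast markers, COL1A1 and COL1A2 carried nearly all of the sum of 7165 to 9827, and DCN and LUM were at 2.31 or lower. CFIm25-m replicate 3 stood further from the mock controls than the other clones, with a median absolute log2 difference over the tested genes of 0.29 against 0.18 for both others, where the mock controls differed from each other by 0.10. The CFIm25-m replicates were separate clones, and the study describes its mock controls as 2 clones picked at random. Each CFIm25-m clone gave 1 library, so p-values measure the spread between these samples only.

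The CpG sites on which these enzymes act are shown for 4 RefSeq promoter windows, each the 250 bases before an annotated start (build GRCh38.p14), 5′ to 3′ on the strand of the gene, with every CG in capitals. DNMT3B and TET1 are shown because they had the smallest unadjusted p among the 9 genes. ZFP42 (rex1, a zinc finger gene of pluripotent cells) and CHCHD2 (a mitochondrial protein gene) are shown because they were among the genes nearly without reads in all 3 clones. The DNMT3B window lies at chr20:32779602-32779851 on the plus strand, the TET1 window at chr10:68560087-68560336 on the plus strand, the ZFP42 window at chr4:187995521-187995770 on the plus strand and the CHCHD2 window at chr7:56106477-56106726 on the minus strand.
DNMT3B: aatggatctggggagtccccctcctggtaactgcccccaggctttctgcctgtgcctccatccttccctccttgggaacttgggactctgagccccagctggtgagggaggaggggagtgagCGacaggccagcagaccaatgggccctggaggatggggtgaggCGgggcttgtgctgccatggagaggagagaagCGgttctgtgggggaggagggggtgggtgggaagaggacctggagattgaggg
TET1: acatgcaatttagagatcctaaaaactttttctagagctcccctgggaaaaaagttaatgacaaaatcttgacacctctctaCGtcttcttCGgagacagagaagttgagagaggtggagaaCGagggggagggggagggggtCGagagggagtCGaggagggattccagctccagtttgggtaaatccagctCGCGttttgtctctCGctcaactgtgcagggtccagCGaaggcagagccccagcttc
ZFP42: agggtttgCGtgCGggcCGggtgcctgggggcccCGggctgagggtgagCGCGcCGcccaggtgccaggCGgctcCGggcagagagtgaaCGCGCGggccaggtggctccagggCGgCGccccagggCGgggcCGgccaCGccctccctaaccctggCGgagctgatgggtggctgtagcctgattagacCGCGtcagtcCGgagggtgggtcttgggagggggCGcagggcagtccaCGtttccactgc
CHCHD2: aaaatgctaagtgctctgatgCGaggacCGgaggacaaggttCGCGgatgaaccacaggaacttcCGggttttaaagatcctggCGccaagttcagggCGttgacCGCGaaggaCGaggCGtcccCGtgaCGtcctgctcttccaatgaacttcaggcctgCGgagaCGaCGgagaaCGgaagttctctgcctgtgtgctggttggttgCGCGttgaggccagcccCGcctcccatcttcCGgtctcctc
The windows held 3 CG in DNMT3B, 9 in TET1, 23 in ZFP42 and 21 in CHCHD2. CG reads the same on both strands, so a count on 1 strand covers both. Among the 35114 RefSeq windows of this length, 77.1% held at least 3 CG, 54.1% at least 9, 25.8% at least 23 and 30.2% at least 21. Tested genes were richer, with a median of 22 CG when each gene was given by its richest window. ZFP42 and CHCHD2 lay near that median. The RefSeq start of DNMT3B lies 17467 bases inside the deposited gene, while that of TET1 lies 319 bases from the deposited start.

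Across 8 of the 9 genes, 19 windows were matched (DNMT3L had no entry), and 12 of the 19 were CpG-rich, meaning at least 50% G and C with an observed to expected CG ratio of at least 0.6. Of all windows 45.0% met both limits, a background that includes genes not tested here. Counted by gene, 6 of the 8 had at least 1 CpG-rich window, beside 79.0% of the 12223 tested genes with a window. DNMT1, DNMT3A, UHRF1, TET2, TET3 and TDG each had at least 1 CpG-rich window, and the CG count reached 41 in UHRF1, a number that 1.73% of windows reached. TET1 had none, with 4 to 11 CG in its 3 windows. DNMT3B had none either, but its only window lies before a start inside the deposited gene. The same holds for the only DNMT1 window, before a start 36333 bases in, and for those of UHRF1, at 6421 to 7287 bases. Some windows of DNMT3A, TET1 and TET3 also belong to starts far inside, up to 90459 bases in DNMT3A. The sequence before the deposited start of DNMT3B, DNMT1 and UHRF1 was not examined. Of the study's lowered genes, ZFP42, CHCHD2 and 1 of the 2 windows of ZNF717 were CpG-rich, and TUSC1 with 14 CG and CCDC152 with 8 were not.

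On levels, DNMT3B stood far above the rest. Per kilobase of the deposited gene length, its normalized count was 12235 ± 244 (SD, n = 2) for the mock controls beside 9758 ± 1147 (SD, n = 3) in CFIm25-m, which placed it 39th and 41st among 17558 protein-coding genes. The maintenance enzyme DNMT1 came next at 562 ± 4.77 per kilobase in the mock controls, so that DNMT3B was 21.8 times as high as DNMT1 there and 19.7 times as high in the clones. Sample by sample this ratio was 21.6 and 22.0 in the mock controls, against 18.2, 18.8 and 22.1 in the clones, and the groups overlapped. TDG (412 ± 19.1), DNMT3A (320 ± 0.49), TET1 (302 ± 8.33) and UHRF1 (238 ± 12.3) followed within a narrow range, also per kilobase in the mock controls. TET3 was lower at 112 ± 0.33, and TET2 (8.94 ± 0.86) and DNMT3L (6.58 ± 1.22) were close to the bottom.

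In the mock controls no neighbours in this order overlapped in their sample values, although DNMT3A exceeded TET1 by a ratio of only 1.06. In the clones TET1 (241 ± 13.9 per kilobase) and UHRF1 (236 ± 7.09) overlapped and could not be ordered, and all other neighbours kept their order without overlap. Gene length here is the deposited length, which differs from the length of the transcript in use where a gene has several starts. Ratios between genes carry that uncertainty. Ratios between groups are free of it only where both groups use the same transcripts, which was not examined here. The study reports little change of polyadenylation sites over the transcriptome of its clones.

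**Figure D1:**
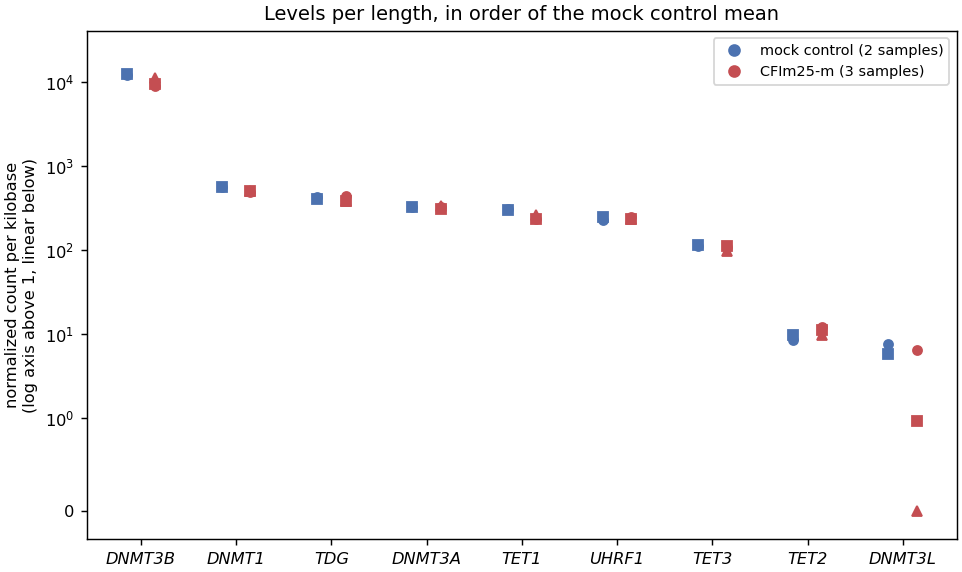
Normalized count per kilobase of deposited gene length for each gene, with 2 mock control samples in blue and 3 CFIm25-m samples in red. The vertical axis is logarithmic above 1 and linear below. DNMT3B lies near 10000, TET2 and DNMT3L lie below 12, and DNMT3L is at 0 in 1 clone.

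Between the groups, no member of the 9 reached an adjusted p under 0.05. The limma-trend test on log2(normalized count + 1) called 361 of 19232 tested genes, or 1.88%, with 180 lower (0.936%) and 181 higher (0.941%) in CFIm25-m. DESeq2 and edgeR on the recovered reads likewise called none of the 9. At an unadjusted p under 0.05, 2 of the 9 passed (TET1 and DNMT3B, both lower in CFIm25-m), where 15.1% of all tested genes did. The median log2 fold change of the 9 was -0.10, against -0.01 over all tested genes, and 7 of the 9 were below 0, although UHRF1, at -0.01, turned to 0.0074 with TMM scaling. In bulk RNA, fewer cells with a transcript and less of it per cell cannot be told apart.

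Among the de novo writers, DNMT3B (ENSG00000088305, GRCh38 chromosome 20, 32762385 to 32809356, plus strand) reached normalized counts of 55851 and 57449 across the mock controls compared with 41046, 43327 and 51168 in the clones. All 3 clones were below both mock controls, with replicate 3 the closest. The log2 fold change was -0.33 (SE 0.14), a difference of -20.6% with a 95% confidence interval of -35.9% to -1.70%, and the limma adjusted p was 0.29. The outcome turned on 1 library: without CFIm25-m replicate 3 the log2 fold change was -0.43 (SE 0.05) and the limma adjusted p was 0.0012, in a fit that called 5.55% of its genes in place of 1.88%. DNMT3B took 0.258% and 0.265% of all assigned reads in the mock controls and between 0.197% and 0.255% in the clones.

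DNMT3A (ENSG00000119772, chromosome 2, 25227855 to 25342590, minus strand) had 3839 and 3848 normalized counts in the mock controls, against 3925, 3696 and 3935 in the clones. The groups overlapped. The estimate was 0.00 on the log2 scale, and its interval, -12.4% to 14.6%, bounds how large a difference these samples leave possible. The ratio of DNMT3B to DNMT3A per kilobase, from which the scaling of a sample drops out, was 37.8 and 38.8 for the mock controls beside 27.2, 30.4 and 33.8 in the clones, without overlap. With 2 samples against 3 an exact permutation test cannot give a p under 0.1, so this ratio is a description.

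DNMT3L (ENSG00000142182, chromosome 21, 44246339 to 44262216, minus strand), the inactive helper of the de novo enzymes, was barely detected. It had 12 and 11 reads across the mock controls compared with 12, 2 and 0 in the clones, at normalized counts of 13.8 and 10.6 against 12.0, 1.80 and 0. Clone 1 lay within the range of the mock controls and the other clones below it. The exact Poisson intervals, which cover counting error only, run from 6.20 to 21.0 reads for the 12 of mock control replicate 1, from 0.24 to 7.22 for the 2 of CFIm25-m replicate 2 and up to 3.69 for the 0 of replicate 3. The log2 fold change of -1.98 (SE 0.93, limma adjusted p = 0.35) moved between -3.21 and -1.04 with a pseudocount of 0.1 or 5 and has no firm size. The gene entered the test through the mock controls and clone 1, the samples that reached the minimum of 10.

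For maintenance, DNMT1 (ENSG00000130816, chromosome 19, 10133345 to 10231286, minus strand) had 5471 and 5537 normalized counts in the mock controls, against 4760, 4877 and 4897 in the clones. The clones lay close together and below both mock controls. The difference was -12.0% (95% confidence interval -22.9% to 0.47%), with a log2 fold change of -0.18 (SE 0.09) and a limma adjusted p of 0.35. The deposited DNMT1 spans 36333 bases beyond its RefSeq start and shares 9854 bases with S1PR2 on the same strand, a receptor gene at 366 to 414 normalized counts for the mock controls beside 339 to 452 in the clones, so reads in the shared bases could count for neither or either gene. UHRF1 (ENSG00000276043, chromosome 19, 4903080 to 4962154, plus strand), which guides DNMT1, had 1178 and 1267 across the mock controls compared with 1254, 1194 and 1188 in the clones. Its groups overlapped, and its interval ran from -14.2% to 14.6%. The ratio of DNMT1 to UHRF1 per kilobase was 2.44 and 2.30 in the mock controls, against 1.99, 2.15 and 2.17 in the clones, again without overlap.

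Among the erasers, TET1 (ENSG00000138336, chromosome 10, 68560656 to 68694482, plus strand), the dioxygenase that dominates in pluripotent cells, had the smallest p of the 9. Its normalized counts were 2861 and 2751 for the mock controls beside 2164, 2167 and 2388 in the clones, so every clone was below both mock controls. The log2 fold change was -0.33 (SE 0.09), a difference of -20.2% with a 95% confidence interval of -30.8% to -8.10%, at an unadjusted p of 0.0053 and a limma adjusted p of 0.12. As for DNMT3B, the outcome turned on CFIm25-m replicate 3, without which the log2 fold change was -0.37 (SE 0.06) and the limma adjusted p 0.0074. Leaving out any other single sample kept both genes above the threshold. A pair of processed pseudogenes lie within TET1, COX20P1 at 25.2 to 47.1 and RPS3AP37 at 2.89 normalized counts or lower.

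TET2 (ENSG00000168769, chromosome 4, 105145875 to 105279816, plus strand) went the other way in every clone, with 137 and 157 normalized counts across the mock controls compared with 196, 185 and 161 in the clones. Clone 3 exceeded mock control replicate 2 by only a few counts. The difference was 22.3% (95% confidence interval -5.66% to 58.6%), a log2 fold change of 0.29 (SE 0.17) with a limma adjusted p of 0.45. The antisense TET2-AS1 had at most 1.93. TET3 (ENSG00000187605, chromosome 2, 73986404 to 74108176, plus strand), the third of the family, had 1376 and 1382 in the mock controls, against 1340, 1346 and 1189 in the clones, which do not overlap but differ by -6.49% (95% confidence interval -19.6% to 8.80%). Per kilobase, TET1 was 37.0 and 31.0 times TET2 for the mock controls beside 19.5, 20.8 and 26.4 times in the clones, without overlap, whereas the ratio of TET1 to TET3 (2.75 and 2.63 against 2.13, 2.13 and 2.65) overlapped.

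TDG (ENSG00000139372, chromosome 12, 103965804 to 103988874, plus strand), which removes oxidised cytosine, had 2085 and 1952 normalized counts across the mock controls compared with 2164, 1853 and 1876 in the clones. The groups overlapped, and the interval of the difference ran from -17.0% to 13.6%. Its pseudogene TDGP1 had 9.22 to 18.0. How reads that match both were counted is not given in the sources used here, so their number is not known.

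**Figure D2:**
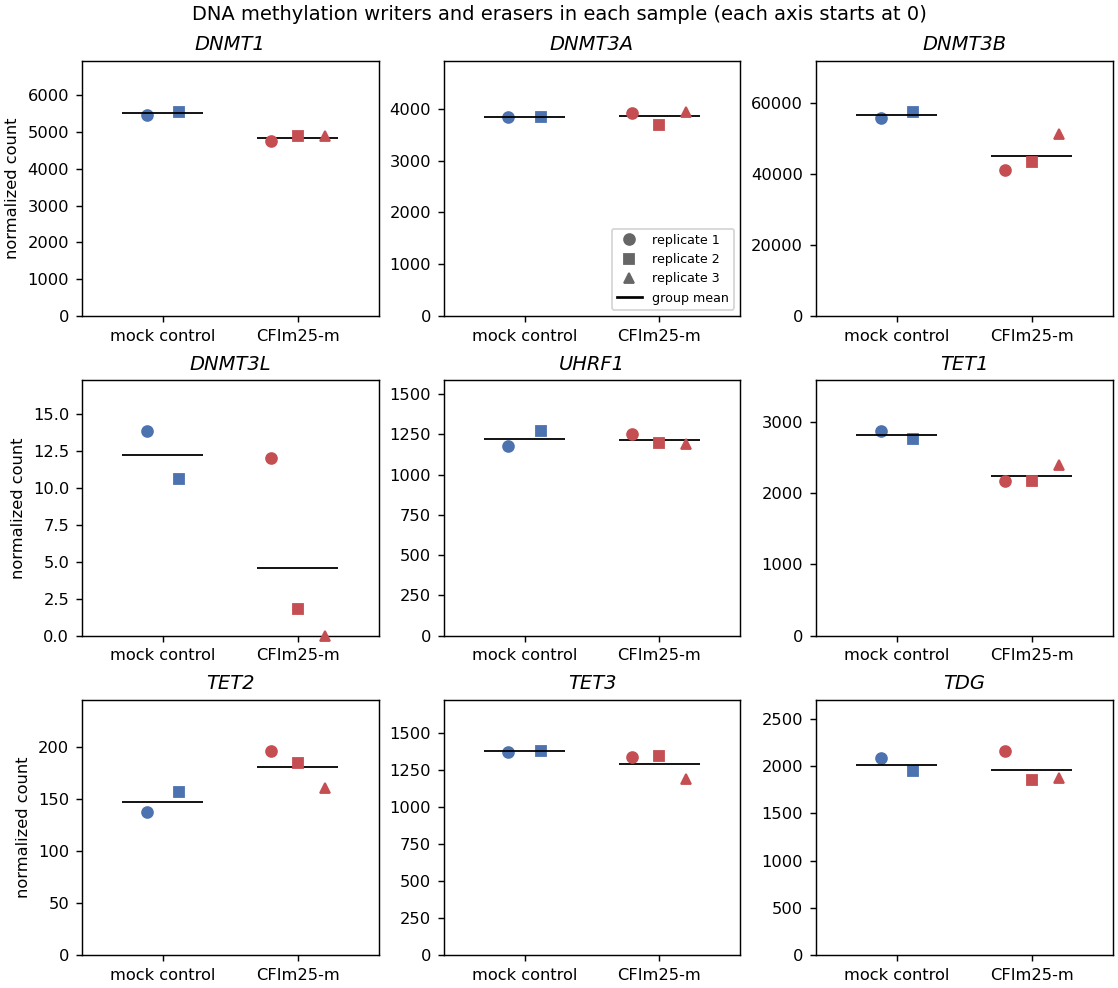
Normalized count of each of the 9 genes in the 2 mock control (blue) and 3 CFIm25-m (red) samples, with marker shape for replicate, a black line for the group mean, and each axis starting at 0. DNMT1, DNMT3B, TET1 and TET3 are lower in all clones than in both mock controls, TET2 is higher, and the other 4 overlap.

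The groups did not overlap in 5 of the 9 genes, 4 lower and 1 higher in the clones. Over all tested genes 36.8% did not overlap, 19.8% lower and 17.0% higher. The share of the 9 was above the background for lower genes and below it for higher ones. The 9 are few and were chosen with earlier results of these data known, so this is a description and was not tested. For scale, the smallest absolute log2 fold change among the 98 called of 4529 genes with a mean of 1000 to 10000 normalized counts was 0.41, and among the 5 called of 257 genes above that it was 0.49. The differences of TET1 and DNMT3B were smaller than either. Taken clone by clone against the mean of the mock controls, TET1 stood at -0.37, -0.37 and -0.23 on the log2 scale in replicates 1, 2 and 3 and DNMT3B at -0.46, -0.39 and -0.15, where mock control replicate 2 minus replicate 1 gave -0.06 and 0.04. DNMT1 was the most even across clones, at -0.21, -0.17 and -0.17.

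**Figure D3:**
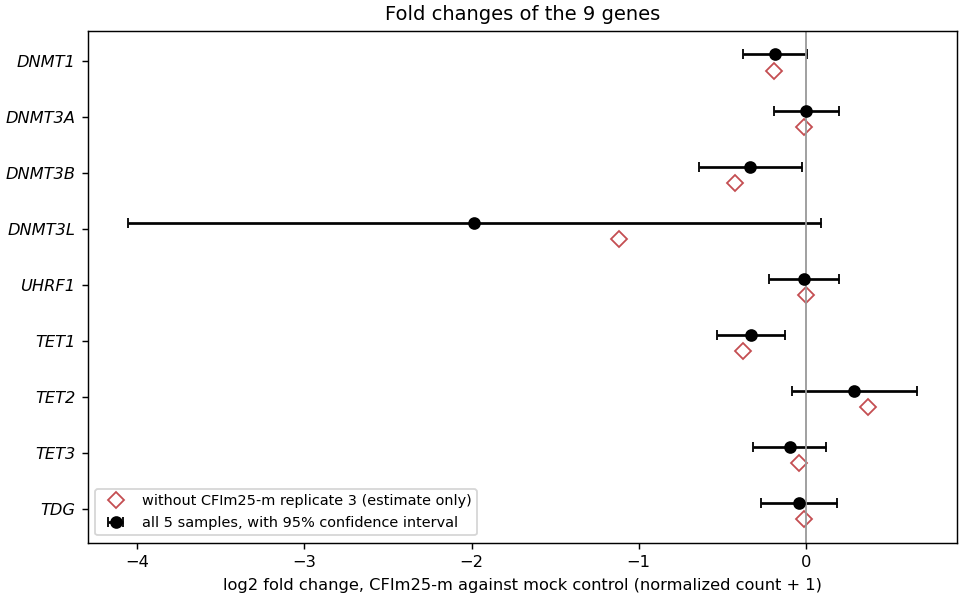
Log2 fold change of each gene (CFIm25-m against mock control) with its 95% confidence interval over all 5 samples (black), and the estimate without CFIm25-m replicate 3 (open red). The intervals of DNMT3B and TET1 lie below 0, the others include 0, and DNMT3L has the widest interval.

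By the pattern over the 5 samples, TET1 was near DNMT3B, at a root mean square distance of 0.06 between centred log2 values, and 40 of the tested genes were closer to DNMT3B. The 5 closest were GLI1, KCNE3, MMP24OS, WDSUB1 and ADGRL1, at distances of 0.02 to 0.03. For TET1 the 5 closest were PTPRG, TRAK2, CCDC8, AFF1 and ZHX3, at 0.03 each, with 84 genes closer than DNMT3B. None of these 10 neighbours passed the threshold.

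The genes around this machinery were given by 7 lists with 90 genes, of which 84 had a row and 76 were tested. None of the 76 passed in the limma-trend test, where 14 had an unadjusted p under 0.05, 9 lower and 5 higher, beside 15.1% of all tested genes. DESeq2 called 2 of the 76, PARP1 lower and CBS higher, and edgeR called none, where DESeq2 called 3.27% of all 19232 genes. Without CFIm25-m replicate 3 limma called 4 of the 76, GADD45G higher and HELLS, MTHFD1 and PARP1 lower, where it called 5.55% of all genes. Neither count stood above its background. The median log2 fold change of the 76 was -0.09, and 49 were below 0, against 9953 of the 19232 tested genes.

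Among the maintenance partners of DNMT1, 3 of 10 had an unadjusted p under 0.05, and they ranged from -0.27 for ZBTB24, a zinc finger gene of the immunodeficiency syndrome that DNMT3B also underlies, to 0.29 for UHRF2, the paralog of UHRF1. UHRF2 had 989 and 910 normalized counts in the mock controls, against 1165, 1167 and 1146 in the clones, without overlap, at a limma adjusted p of 0.19. The 10 targeting factors had none under 0.05 and ranged from -0.17 for SETD2, the histone methyltransferase whose mark the de novo enzymes bind, to 0.63 for ZFP57, an imprint-protecting zinc finger gene that stayed at 54.0 normalized counts or lower. The 7 methyl-CpG readers also had none, and ranged from -0.11 for MBD1 to 0.20 for MBD2.

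The base excision repair list ranged from -1.02 for GADD45B to 0.51 for NEIL1 over 14 genes, with 3 under 0.05. GADD45B, a stress-induced gene linked to demethylation, had 217 and 230 normalized counts for the mock controls beside 125, 167 and 62.5 in the clones, at a limma adjusted p of 0.19. PARP1, which senses strand breaks, had 18990 and 18646 across the mock controls compared with 14562, 15831 and 13183 in the clones, a log2 fold change of -0.38 (SE 0.11) with a limma adjusted p of 0.14. Its groups did not overlap, and it passed the threshold in DESeq2 and without CFIm25-m replicate 3. It is named here after its values were seen.

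In the methyl donor cycle, which supplies the methyl group, 3 of 15 genes had an unadjusted p under 0.05. MTHFD1, a folate enzyme upstream of the donor, had the largest absolute log2 fold change of the 76 tested related genes: 3278 and 3152 normalized counts in the mock controls, against 1866, 1797 and 925 in the clones. The log2 fold change was -1.14 (SE 0.25) and the limma adjusted p 0.054, just short of the threshold, which it passed with a pseudocount of 5 and without CFIm25-m replicate 3. At the other end, BHMT had 10.4 and 8.69 for the mock controls beside 16.0, 19.8 and 18.3 in the clones, a log2 fold change of 0.85 at a limma adjusted p of 0.32. CBS, which draws homocysteine out of the cycle, had 1684 and 1378 across the mock controls compared with 1918, 2901 and 2092 in the clones, at 0.57 (SE 0.17) and a limma adjusted p of 0.14, and it too is named after its values were seen. The 11 TET partners and cofactor genes ranged from -0.29 for OGDH to 0.48 for CXXC4.

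The last list held germline genes that promoter methylation keeps silent in somatic cells. Of 22, 16 had a row and 9 were tested, with a median log2 fold change of -0.41 and 8 below 0. The gene at the median had only 14 to 27 reads per sample and an SE of 0.35. Several others of the list were as low. The highest, DPEP3, had 626 and 667 normalized counts in the mock controls, against 481, 523 and 191 in the clones. DAZL had 273 and 256 against 248, 137 and 114. Their log2 fold changes were -0.83 and -0.75, at limma adjusted p of 0.30 and 0.24. Both are named after their values were seen. In 5 of the 9 tested genes all clones were below both mock controls, beside 19.8% of all tested genes. The extremes were MAGEA4 at -1.06, with 71.5 and 76.2 normalized counts in the mock controls, against 51.1, 27.0 and 30.8 in the clones, and SOHLH2 at 0.02. None passed the threshold, and 3 were under an unadjusted p of 0.05, all 3 lower in CFIm25-m, where 7.15% of all tested genes were lower at that p. DNMT3L is known to be high in naive pluripotent cells. Of the markers of that state, DPPA5 stayed at 56.0 normalized counts or lower and DPPA3 at 13.8 or lower in every sample, both lower in all clones than in both mock controls. TFCP2L1, a transcription factor gene of the same list, was plainly expressed, at 506 and 481 normalized counts with mock control and 328, 352 and 380 in the clones, a log2 fold change of -0.48 (SE 0.12) with a limma adjusted p of 0.089. Of the other 2 markers of this list, KHDC1L stayed at 1.15 or lower and KLF17 had no row and was not analysed here.

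The genes lowered in the clones moved on another scale. ZFP42 had 2306 and 2403 normalized counts for the mock controls beside 4.01, 3.60 and 0 in the clones, a log2 fold change of -9.69 with a limma adjusted p of 0.00012. CHCHD2 had 280.1 and 279.9 against 1.00, 2.70 and 3.85, at -6.41. LINC00458, ZNF717 and CCDC152 were at -6.04, -4.29 and -3.96, and TUSC1 was at 106 and 124 in the mock controls with 0 reads in every clone. The exact Poisson interval for a count of 0 runs up to 3.69 reads. The study picked these 6 on these samples, so they serve only as a scale: the smallest of their log2 fold changes was -3.96, beside -0.33 for TET1 and DNMT3B.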

How the data were processed

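Poly(A+) RNA of 5 samples was sequenced as paired-end reads. The authors' processing notes name HISAT2, featureCounts of Subread, DESeq2 and build hg38, with versions and strand setting not given in the sources used here. The deposited signal values are gene counts that the authors divided by size factors. In every sample 100% of the values were whole multiples of the value of 1 read (within 0.01 reads), so whole reads were recovered. The authors' group means, fold changes and p-values were not used, and 0 columns of samples were left unmapped.

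A gene was kept where 2 or more samples reached a normalized count of 10, and was then tested by limma-trend 3.58.1 (R 4.3.3) on log2(normalized count + 1), two-sided, without covariates, with Benjamini-Hochberg adjustment over all tested genes and a threshold of 0.05. A fold change on this scale understates the change of low genes. Alternatives were DESeq2 1.42.0 and edgeR 4.0.16 run on those whole reads, TMM scaling, other filters and pseudocounts, limma without trend, the replicate number as a block and each sample left out, and the 3 test scripts were tested on simulated data. Replicate numbers did not pair the samples. Members and lists were chosen with earlier results of these data known. Genes were named by a fixed rule: the 9 members, NUDT21, the study's lowered genes, related genes past the threshold and the extremes of each list, the 5 nearest profiles of DNMT3B and of the member with the smallest p, and genes overlapping a member or pseudogenes of one. PARP1, CBS, HELLS, GADD45G, DPEP3 and DAZL were added after their values were seen. Promoter windows came from RefSeq (GRCh38.p14), 250 bases before each start. Counting intervals cover 95% and counting error only.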

Additional observations from a re-analysis of the deposited data

How the results depend on the processing

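None of the 9 genes passed with TMM scaling, edgeR, DESeq2, either other filter, either other pseudocount or limma without trend, where all genes called numbered 46 in limma without trend and 629 in DESeq2 against 361. With each sample left out in turn, all genes called ranged from 66 to 1044, members called from 0 to 2 and related genes called from 0 to 4. The upper values all came without CFIm25-m replicate 3, and the cause was not tested. Leaving out a mock control leaves 1 sample in that group, which is then assumed to vary like the clones. Of related genes, 1 passed with a pseudocount of 5 (MTHFD1) and 2 in DESeq2 (CBS and PARP1).

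With the replicate number as a block, 2107 genes passed, with 3 of the 9 members (DNMT1, DNMT3B and TET1, limma adjusted p of 0.043, 1.4e-06 and 0.00012) and 14 related genes. The numbers did not pair the samples: same-numbered samples correlated at 0.0072 and 0.018 in their deviations from the group means. CFIm25-m replicate 3 has no partner and drops out of that fit, so its log2 fold changes are those of 4 samples.

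Signs turned only in genes near 0. DNMT3A, 0.0025 with all samples, was -0.013 under the block and ranged from -0.013 to 0.032 with a sample left out. UHRF1 was 0.0074 with TMM scaling, 0.0063 in edgeR and 0.0020 under the block, and ranged from -0.065 to 0.040 with a sample left out. TDG ranged from -0.11 to 0.0051 with a sample left out. DNMT3L was not tested under the filter of 50 and has no adjusted p in DESeq2. Depth limits DNMT3L, at 12 reads or fewer per sample, and the other 8 genes had 119 reads or more in each sample.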

Other observations

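Promoters of the genes called lower or higher in the clones were compared with those of all tested genes, as a description. A gene was counted as CpG-rich where at least 1 of its RefSeq windows was. Of 12223 tested genes with a window 79.0% were CpG-rich, of 108 such genes called lower 70.4% and of 126 called higher 62.7%. The test called 180 genes lower and 181 higher, and those without a window or with a shared name are missing from these shares. Among genes called beyond 1 on the log2 scale the shares were 63.8% of 47 lower and 59.1% of 66 higher. At both limits the share was higher in genes called lower than in genes called higher, and all 4 shares were below that of all tested genes. No test was made of these shares.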
